A study of Mus musculus with 58 samples.

Results

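Soleus (SOL), a slow muscle of the calf, was followed here along the range of body mass that mice with a C26 tumour reached at day 19. C26 is a mouse colon adenocarcinoma line whose growth under the skin is accompanied by cachexia, the loss of muscle and fat during cancer. The members are all SOL arrays of tumour-bearing mice, which number 11 of the 58 arrays of the study. They were 6 T mice, with the tumour only, and 5 T + WBV mice, which also received whole-body vibration training (WBV) of 15 min per day at 45 Hz and 1.0 g. For each gene the log2 intensity was regressed on body mass at day 19, given in percent of the mean of day 0 and day 1, with training as a covariate. All mice were male CD2F1 animals, a cross of BALB/c and DBA/2. The mice without a tumour, C (6 SOL arrays) and C + WBV (6), had been injected with the salt solution that carried the tumour cells. Body mass includes the tumour, and the model rests on 1 tumour line.

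Wasting muscle breaks down protein through ubiquitin ligases, which mark proteins for the proteasome, and through autophagy, and FoxO transcription factors drive many of these genes. In cachexia the muscle also receives cytokine signals of the acute phase response and glucocorticoid hormone, both of which switch on muscle genes of their own. The collagen of muscle lies in the sheaths around its fibres and in the tendon at its ends.

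The body mass of T mice was 77.5, 78.5, 79.3, 79.8, 82.6 and 91% (replicates 6, 2, 1, 4, 5 and 3). That of T + WBV mice was 75.9, 82.2, 83.2, 87.8 and 100.9% (replicates 3, 4, 5, 1 and 2). The 9 lightest mice thus lie within 75.9 to 87.8%, and 2 mice stand above them, T replicate 3 and T + WBV replicate 2. The 12 control mice ranged from 107 to 114.5%. T + WBV replicate 2 alone has a leverage of 0.669 in the regression, where the other 10 mice have 0.169 to 0.415, so this mouse has the most weight in the slopes over all 11 mice.

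Carcass mass, which is body mass without the tumour, ranged from 15.68 to 22.95 g in these 11 mice. It went with body mass, with Pearson r = 0.942 and Spearman rho = 0.918 (permutation test, p = 8.00e-05 and adjusted p = 0.00024 over 3 relations for each, and exact p = 0.00471 for r = 0.850 without the 2 heaviest mice). The SOL sample itself weighed 5.6 to 7.7 mg. Its mass gave r = 0.223 and rho = 0.127 with body mass (permutation test, p = 0.513 and 0.712, adjusted 0.513 and 0.712, and r = 0.145 without the 2 heaviest mice). EDL mass of the same mice gave r = 0.433 and rho = 0.470 (permutation test, p = 0.191 and 0.146, adjusted 0.286 and 0.219), with r = 0.155 without the 2 heaviest mice. For EDL mass, r was 0.722 without T replicate 2 (permutation test, adjusted p = 0.0268) and 0.142 without T + WBV replicate 2. The gene expression below is thus set against the mass of the mouse, and the mass of the SOL itself did not pass a test of going with it. In a whole muscle, fewer cells of a type and less RNA per cell cannot be told apart.

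The SOL arrays carried more RNA of slow fibres than the EDL arrays, and RNA of fast fibres as well. Myh7, the slow myosin heavy chain, was at 12.00 to 12.48 in the 11 SOL arrays and at 4.00 to 8.94 in the EDL arrays of the same mice. Myh4, the fastest myosin, was at 6.30 to 10.84 in SOL against 12.40 to 12.96 in EDL. Myh1, another fast myosin, was high in both, at 11.00 to 11.76 in SOL against 11.78 to 12.65 in EDL. 1 library stood apart in another way. The SOL array of T + WBV replicate 4 had genes of the gut lining far above all other SOL arrays, for example Fabp2, an intestinal fatty acid binding protein, at 11.29 against 2.15 to 3.12. Of 20 such genes, chosen after the values were seen, 19 lay above all 22 other SOL arrays, and their mean was 8.16 against 3.21 to 3.52. The EDL array of the same mouse showed 18 of the 20 (mean 5.70 against 3.20 to 3.75). Its heart array showed 1 of the 20, with a mean of 3.30 within the 3.19 to 3.52 of the other heart arrays. The part of this mouse in the results was measured by leaving it out.

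In SOL, 63 of 18820 genes followed body mass (limma, adjusted p under 0.01 after Benjamini-Hochberg), or 0.335% of the genes tested. A slope is given throughout as the change in log2 intensity per 10 percentage points of lower body mass, so a slope above 0 means a higher level in lighter mice. By this measure 24 genes were higher in lighter mice (0.128%) and 39 were lower (0.207%). At an adjusted p under 0.05 there were 358 genes (1.90%), 152 higher (0.808%) and 206 lower (1.09%), and 2831 genes had an unadjusted p under 0.05. The median slope of all genes was 0.01. The slopes of the 24 ran from 0.39 to 1.49 and those of the 39 from −1.62 to −0.36. At the threshold, Dupd1, Cebpd and Col6a2 lay just inside with adjusted p = 0.00944, and Krt80, Pcolce and Otulin just outside with adjusted p = 0.0102.

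The count rests on the heaviest mouse. Without T + WBV replicate 2, 0 genes passed with limma (1722 at an unadjusted p under 0.05), and the 63 genes then had adjusted p from 0.101 to 0.365. Without T replicate 3 the count was 10, without T + WBV replicate 3, the lightest mouse, 8, and without T replicate 2, which has the lowest array weight, 109. Without T + WBV replicate 4, the array with gut genes, it was 74, and these held all 63. In the 9 lightest mice 0 genes passed (617 at an unadjusted p under 0.05), and all 63 had the sign they had in 11 mice, where 70.2% of all genes did. Of the 63, 38 had an unadjusted p under 0.05 in the 9 mice, where 3.28% of all genes did, but these 9 are among the mice that chose the genes, so neither count is independent of the choice. With carcass mass in place of body mass 2 genes passed, and with the rank of body mass 0 did with limma (2560 at an unadjusted p under 0.05).

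**Figure D1:**
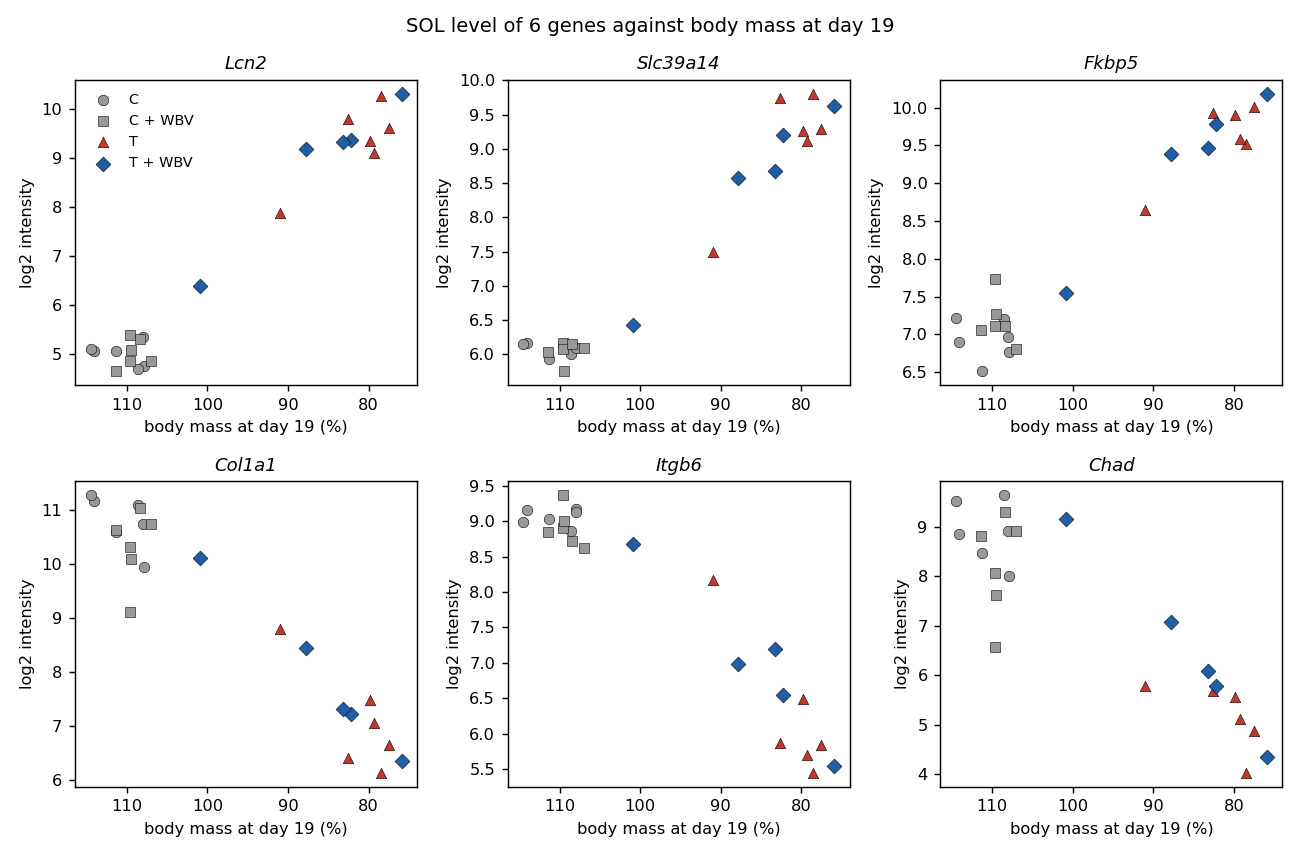
SOL log2 intensity (y axis) against body mass at day 19 (x axis, percent, heavier mice to the left) for 6 genes, with each point 1 mouse. Lcn2, Slc39a14 and Fkbp5 climb and Col1a1 and Itgb6 drop from the 12 control mice over T + WBV replicate 2 at 100.9% and T replicate 3 at 91% to the 9 lightest mice, while for Chad T replicate 3 lies among the 9.

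Among the genes higher in lighter mice, Lcn2 had the steepest slope. It encodes lipocalin 2, a secreted acute phase protein that binds the iron carriers of bacteria. Its log2 level was 9.09 to 10.31 (median 9.36) in the 9 lightest mice, 7.88 in T replicate 3 and 6.39 in T + WBV replicate 2, and 5.01 ± 0.24 (SD, n = 6) in C. All 11 tumour-bearing mice thus lay above C, and the 2 heaviest lay nearest to it. The slope was 1.49 (SE 0.16, limma, adjusted p = 0.00106), or 2.81-fold per 10 points, and in the 9 lightest mice 0.83 (SE 0.34, unadjusted p = 0.0317). Serpina3n, a secreted protease inhibitor of the acute phase from a family of near copies, was at 10.03 to 11.04 in the 9 mice, 9.20 in T replicate 3, 7.62 in T + WBV replicate 2 and 5.99 ± 0.49 (SD, n = 6) in C. Its slope was 1.25 (SE 0.18, adjusted p = 0.00483), but only 0.23 (SE 0.31) (unadjusted p = 0.480) within the 9 mice.

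Cebpd, a transcription factor of the acute phase response, had the same shape. It was at 7.07 to 8.24 in the 9 mice, 6.47 and 5.38 in the 2 heaviest, and 4.89 ± 0.31 (SD, n = 6) in C, with a slope of 0.98 (SE 0.16, adjusted p = 0.00944) and of 0.23 (SE 0.33) in the 9 mice. The list of acute phase and IL-6 signalling genes has 32 measured members, of which these 3 were higher in lighter mice and 0 lower. At an adjusted p under 0.05 it was 7 and 0, and the median slope of the list was 0.17 against 0.01 for all genes. Of all genes, 0.128% were higher and 0.207% lower at 0.01, and 0.808% and 1.09% at 0.05. The gene lists here and below were chosen with earlier results of these data known, so their counts are a description. Socs3, the feedback inhibitor of that pathway, missed the threshold with a slope of 0.43 (SE 0.08, adjusted p = 0.0149). Stat3, which carries the signal of the IL-6 family to the nucleus, had a slope of 0.13 (SE 0.09, adjusted p = 0.548). Stat3 was at 9.39 to 9.90 in the 9 mice and already at 9.41 in T + WBV replicate 2, against 8.69 ± 0.11 (SD, n = 6) in C.

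Neutrophils also store lipocalin 2, and the level of their markers is described along body mass. The mean log2 level of 10 neutrophil markers was 3.84 to 4.47 in the 9 lightest mice, 3.74 in T replicate 3, 3.60 in T + WBV replicate 2 and 3.11 to 3.37 in the 12 control mice. All 10 slopes were above 0, against 10142 of 18820 over all genes. A single marker, Mmp8, a collagenase, had an adjusted p under 0.05 (slope 0.85, SE 0.20, adjusted p = 0.0476). The part of neutrophils in the slope of Lcn2 was not tested.

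Metallothioneins are small proteins that bind zinc and copper, and Mt1 and Mt2, the widely expressed ones, were higher in lighter mice. Mt2 was at 12.05 to 12.59 in the 9 mice, 11.08 in T replicate 3, 10.59 in T + WBV replicate 2 and 9.61 ± 0.59 (SD, n = 6) in C, with a slope of 0.84 (SE 0.10, adjusted p = 0.00191). Mt1 was at 12.22 to 12.64, 11.69, 11.13 and 10.50 ± 0.24 (SD, n = 6) in the same order, with a slope of 0.60 (SE 0.09, adjusted p = 0.00466). Among the 9 lightest mice both were nearly level, with slopes of 0.24 (SE 0.17) and 0.14 (SE 0.17).

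Slc39a14, or ZIP14, brings zinc and iron into the cell. It was at 8.57 to 9.81 in the 9 mice, 7.49 in T replicate 3 and 6.43 in T + WBV replicate 2, all above the C range of 5.94 to 6.16. Its slope was 1.33 (SE 0.15, adjusted p = 0.00115) and 0.67 (SE 0.30, unadjusted p = 0.0449) within the 9 mice. These 3 were the calls among 14 measured metallothionein and zinc transporter genes, where 0.128% of all genes were called higher. The other 11 did not pass, among them Mt3, the metallothionein known from brain (slope −0.02, SE 0.10, adjusted p = 0.940), and the median slope of the list was 0.05.

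The promoters of Mt1 and Mt2, which neighbour each other on chromosome 8, are shown because the pair moved together and because metal response elements are the classic feature of metallothionein promoters. Printed are the 250 bases before the start of each gene (RefSeq, GRCm38.p6), with matches to TGCACNC or TGCGCNC, the core of that element, in capitals on either strand.
Mt1, chr8:94178839-94179088, + strand: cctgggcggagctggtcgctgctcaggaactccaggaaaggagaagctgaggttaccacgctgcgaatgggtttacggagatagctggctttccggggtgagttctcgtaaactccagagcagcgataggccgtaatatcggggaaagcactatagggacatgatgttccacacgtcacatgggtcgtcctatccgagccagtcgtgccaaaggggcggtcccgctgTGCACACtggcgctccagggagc
Mt2, chr8:94172368-94172617, + strand: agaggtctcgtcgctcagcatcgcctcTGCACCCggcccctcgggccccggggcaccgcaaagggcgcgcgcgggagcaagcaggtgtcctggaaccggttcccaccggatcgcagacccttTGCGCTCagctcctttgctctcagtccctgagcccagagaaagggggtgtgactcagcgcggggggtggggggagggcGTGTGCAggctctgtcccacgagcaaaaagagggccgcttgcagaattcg
Within these 250 bases Mt1 holds 1 match and Mt2 holds 3. Bases outside the window, such as those after the RefSeq start, were not searched, so the counts do not give all elements of either gene. Of 32851 RefSeq windows of this length, 21.4% hold at least 1 match and 5.17% hold 2 or more. The table has a window for 18 of the 24 genes that were higher in lighter mice and for 30 of the 39 that were lower, and 6 and 10 of these hold a match. A match is a description of the letters and not a site of binding.

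Glucocorticoid targets were higher in lighter mice in 2 of 22 measured cases and lower in 0, where 0.128% and 0.207% of all genes were. Fkbp5, a co-chaperone of the glucocorticoid receptor that the receptor itself induces, was at 9.38 to 10.18 in the 9 mice, 8.65 in T replicate 3, 7.54 in T + WBV replicate 2 and 6.93 ± 0.27 (SD, n = 6) in C. Its slope was 1.01 (SE 0.11, adjusted p = 0.00106), or 2.01-fold per 10 points, and 0.54 (SE 0.22, unadjusted p = 0.0307) in the 9 mice. Glul, or glutamine synthetase, was at 10.64 to 11.08 in the 9 mice and at 9.71 and 9.72 in the 2 heaviest, with 9.16 ± 0.32 (SD, n = 6) in C. Its slope was 0.65 (SE 0.10, adjusted p = 0.00483). The median slope of the list was 0.31 in all 11 mice but 0.07 in the 9 lightest.

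Of 29 ubiquitin ligases and atrophy genes, 3 were higher in lighter mice and 0 lower, where 0.128% and 0.207% of all genes were. At an adjusted p under 0.05 it was 6 and 0, against 0.808% and 1.09% of all genes. Sesn1, or sestrin 1, which restrains the growth kinase mTORC1, was at 8.97 to 10.41 in the 9 mice, 8.35 and 7.81 in the 2 heaviest and 7.35 ± 0.26 (SD, n = 6) in C. Its slope was 1.04 (SE 0.17, adjusted p = 0.00944). Fbxo31, the substrate receptor of a ubiquitin ligase, had a slope of 0.65 (SE 0.10, adjusted p = 0.00624). Eif4ebp1, which blocks cap-dependent translation when mTORC1 is off, had one of 0.61 (SE 0.10, adjusted p = 0.00676) and was also the call among 30 genes of the amino acid response.

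The classic atrophy ligases were not among the calls. Fbxo32, or atrogin-1, was at 10.28 to 11.50 in the 9 mice, 10.73 in T replicate 3 and 10.00 in T + WBV replicate 2, against 9.79 to 10.34 in C, and its slope was 0.32 (SE 0.14, adjusted p = 0.301). Trim63, or MuRF1, was at 10.14 to 11.12, 10.08 and 9.07, against 8.83 to 9.47 in C, and its slope was 0.53 (SE 0.16, adjusted p = 0.121). T + WBV replicate 2 thus lay within the C range for both ligases, and the other 10 mice lay above it for Trim63. Among the 9 lightest mice Trim63 had a slope of −0.15 (SE 0.35), a slope not detectable as different from 0 with these mice. Ddit4, another inhibitor of mTORC1, missed the threshold with a slope of 1.20 (SE 0.21, adjusted p = 0.0129).

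Foxo1 was higher in lighter mice, at 8.15 to 8.85 in the 9 mice, 7.79 and 7.50 in the 2 heaviest and 7.46 ± 0.22 (SD, n = 6) in C. Both of the heaviest mice lay within the C range of 7.16 to 7.80, and the slope was 0.55 (SE 0.08, adjusted p = 0.00624). Foxo3 had a slope of 0.40 (SE 0.08, adjusted p = 0.0273) and did not pass. Igfbp3, which binds insulin-like growth factors in the circulation, was at 6.71 to 8.21 in the 9 mice and at 5.94 and 5.70 in the 2 heaviest, which again lay within the C range of 5.65 to 6.49. Its slope was 0.99 (SE 0.15, adjusted p = 0.00624) and 0.92 (SE 0.32, unadjusted p = 0.0149) in the 9 mice, so it was nearly as steep there. Of 26 measured genes of FoxO factors and growth signalling, these 2 were higher and 0 lower, where 0.128% and 0.207% of all genes were. At an adjusted p under 0.05 it was 5 higher and 2 lower, against 0.808% and 1.09% of all genes. The slopes of this list were split, with 13 above 0 and 13 below and a median of 0.02. Mstn, or myostatin, the muscle growth inhibitor, had a slope of 0.37 (SE 0.26, adjusted p = 0.564).

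Hmox1 and Gclm, which were in no list, are described next. Hmox1, or heme oxygenase 1, which breaks heme down and frees its iron, was at 7.26 to 8.97 in the 9 mice, 5.96 in T replicate 3 and 5.86 in T + WBV replicate 2. The 2 heaviest mice were at the level of C (5.97 ± 0.28, SD, n = 6), and the slope was 1.20 (SE 0.18, adjusted p = 0.00624). Gclm, the modifier subunit of the enzyme that starts glutathione synthesis, had a slope of 0.80 (SE 0.12, adjusted p = 0.00483), and T replicate 3 and T + WBV replicate 2, at 7.08 and 7.00, lay within its C range of 6.54 to 7.11. Sqstm1, or p62, the adaptor that brings cargo to autophagy, had a slope of 0.39 (SE 0.06, adjusted p = 0.00667). It was the call among 30 autophagy and lysosome genes, where 0.128% of all genes were called higher. At an adjusted p under 0.05 the list still held 1 higher and 0 lower, against 0.808% and 1.09% of all genes. The median slope of the list was 0.12, and 0.04 in the 9 mice. In contrast, Alas1, the first enzyme of heme synthesis, was lower in lighter mice with a slope of −0.51 (SE 0.08, adjusted p = 0.00600).

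The other genes that were higher in lighter mice had slopes between 0.44 and 1.00. Bcl2l1, which encodes the survival protein Bcl-xL, had a slope of 0.71 (SE 0.08, adjusted p = 0.00162). It was at 8.15 to 8.94 in the 9 mice, 8.08 in T replicate 3 and 6.93 in T + WBV replicate 2, where C was at 6.26 to 6.97. Hif3a, a member of the hypoxia-inducible factor family, had a slope of 0.76 (SE 0.10), and Sv2b, a synaptic vesicle protein, one of 0.79 (SE 0.11). Syt12, of the synaptotagmin family, had the steepest slope of these (1.00, SE 0.16). The least steep slopes were those of Ehd3, which acts in endosome recycling, Atp6v1h, a subunit of the proton pump of lysosomes, Tfdp2, a partner of the E2F factors, and Zpr1, a zinc finger protein, at 0.70, 0.63, 0.62 and 0.44.

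**Figure D2:**
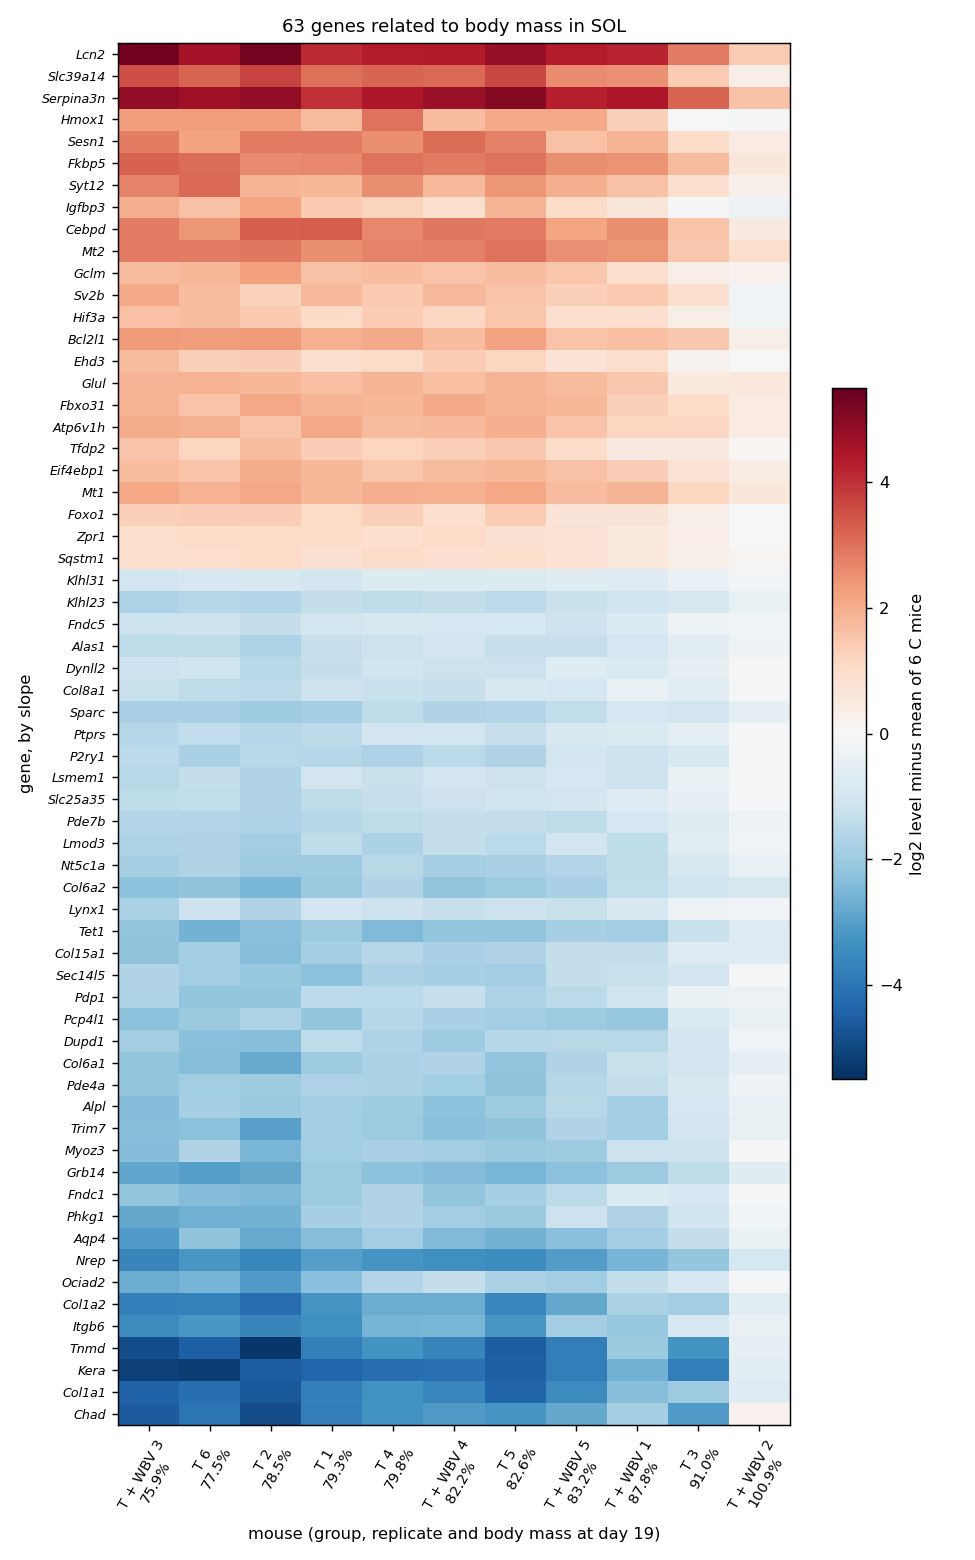
Log2 level minus the mean of the 6 C mice (colour) of the 63 called genes (rows, by slope) in the 11 tumour-bearing mice (columns, lightest to the left). The colours fade towards the 2 heaviest mice, and the column of T + WBV replicate 2 at 100.9% is the palest.

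Genes of the matrix were the largest group among those lower in lighter mice. Of 44 measured genes of the extracellular matrix, 9 were lower in lighter mice and 0 higher, where 0.207% and 0.128% of all genes were. At an adjusted p under 0.05 it was 14 and 0, against 1.09% and 0.808% of all genes, and the median slope was −0.20. The 9 were Col1a1, Col1a2, Col6a1, Col6a2, Col8a1, Col15a1, Sparc, Kera and Tnmd. Col1a1, the more abundant chain of collagen I, was at 6.13 to 8.45 (median 7.04) in the 9 lightest mice, 8.79 in T replicate 3 and 10.11 in T + WBV replicate 2, against 10.81 ± 0.50 (SD, n = 6) in C. Only T + WBV replicate 2 lay within the C range of 9.94 to 11.28. The slope was −1.55 (SE 0.17, adjusted p = 0.00113), and in the 9 mice it was −1.43 (SE 0.42, unadjusted p = 0.00541).

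Col1a2, the partner chain, was at 6.51 to 8.97 in the 9 mice, 8.81 and 10.13 in the 2 heaviest and 10.71 ± 0.45 (SD, n = 6) in C. Its slope was −1.28 (SE 0.16, adjusted p = 0.00191). The chains of type VI collagen, which surrounds the muscle fibre, had slopes of −0.75 (Col6a1, SE 0.12, adjusted p = 0.00676) and −0.65 (Col6a2, SE 0.11, adjusted p = 0.00944). Col15a1 and Col8a1, of basement membranes and vessel walls, had slopes of −0.68 and −0.53, and Sparc, a matrix protein that binds collagen, one of −0.56 (SE 0.08, adjusted p = 0.00459). Postn and Col3a1, named for their size after the values were seen, had slopes of −1.29 (SE 0.24, adjusted p = 0.0150) and −1.09 (SE 0.24, adjusted p = 0.0309) and missed the threshold of 0.01.

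The promoter of Col1a2 is shown beside them for its CCAAT box, a known element of collagen I promoters, with matches to CCAAT on either strand in capitals (the 250 bases before the start, RefSeq, GRCm38.p6).
Col1a2, chr6:4505368-4505617, + strand: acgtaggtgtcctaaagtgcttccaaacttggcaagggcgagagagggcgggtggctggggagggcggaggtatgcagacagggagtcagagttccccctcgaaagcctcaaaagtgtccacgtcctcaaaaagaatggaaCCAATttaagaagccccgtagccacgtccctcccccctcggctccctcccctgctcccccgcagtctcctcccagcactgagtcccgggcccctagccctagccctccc
It holds 1 match, and 33.8% of all windows of this length hold at least 1. Of the called genes with a window, 9 of 30 lower and 6 of 18 higher genes hold one.

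Among the 63 genes the steepest slope was that of Chad, a gene of tendon and cartilage. Chad, or chondroadherin, a matrix protein that chondrocytes bind, was at 4.03 to 7.07 (median 5.56) in the 9 lightest mice, 5.79 in T replicate 3 and 9.15 in T + WBV replicate 2, against 8.90 ± 0.61 (SD, n = 6) in C. Its slope was −1.62 (SE 0.20, adjusted p = 0.00191), a 3.06-fold lower level per 10 points. Kera, the proteoglycan keratocan, was at 3.50 to 6.10 in the 9 mice, 4.92 and 8.10 in the 2 heaviest and 8.73 ± 0.54 (SD, n = 6) in C, with a slope of −1.54 (SE 0.18, adjusted p = 0.00146). Tnmd, or tenomodulin, a membrane protein of tendon cells, was at 4.17 to 7.46, 6.20 and 9.00 against 9.51 ± 0.49 (SD, n = 6), with a slope of −1.53 (SE 0.25, adjusted p = 0.00823).

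These 3 genes did not keep to the order of body mass, since T replicate 3 at 91% had less of each than T + WBV replicate 1 at 87.8%. For Col1a2, too, T replicate 3 lay within the range of the 9 lightest mice. The slopes of the 3 genes were accordingly shallower within T (−0.84, −0.71 and −0.83 for Chad, Kera and Tnmd) than within T + WBV (−1.89, −1.83 and −1.78). The difference between the groups did not pass for any gene after adjustment, as given below. Within the 9 lightest mice the slopes of these 3 were steeper than in all 11, at −2.31 (SE 0.34, unadjusted p = 2.26e-05), −1.91 (SE 0.30, unadjusted p = 3.99e-05) and −1.99 (SE 0.57, unadjusted p = 0.00425).

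Tenocyte and fibroblast markers as a whole were described beside them, since a muscle can be cut with more or less of its tendon. The mean log2 level of 9 such markers was 7.08 to 8.43 in the 9 lightest mice, 7.63 in T replicate 3, 8.83 in T + WBV replicate 2 and 7.97 to 9.28 in the 12 control mice. Besides Tnmd and Kera no marker passed, and 7 of the 9 slopes were below 0, against 8678 of 18820 over all genes. Scx, the transcription factor that defines tendon cells, had a slope of 0.06 (SE 0.13, adjusted p = 0.890), and Dcn, or decorin, a proteoglycan of fibroblasts, one of −0.06 (SE 0.08, adjusted p = 0.805). The part of tendon in the samples was not tested.

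Other genes that were lower in lighter mice act at the cell surface and in signalling. Itgb6, a chain of an integrin that activates TGF-beta, was at 5.44 to 7.19 in the 9 mice, 8.17 in T replicate 3 and 8.68 in T + WBV replicate 2, all below the C range of 8.86 to 9.16. Its slope was −1.34 (SE 0.17, adjusted p = 0.00191). Aqp4, the water channel of the fibre membrane, had a slope of −1.01 (SE 0.12, adjusted p = 0.00191), with 3.42 to 4.68 in the 9 mice, 5.21 and 6.17 in the 2 heaviest and 6.53 ± 0.34 (SD, n = 6) in C. Grb14, an adaptor that inhibits the insulin receptor, had one of −0.90 (SE 0.11, adjusted p = 0.00191). Nrep, described in regenerating nerve, was at 5.01 to 6.09, 6.52 and 7.71, all below its C range of 8.28 to 9.19, with a slope of −1.05 (SE 0.11, adjusted p = 0.00106).

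Phosphodiesterases, which break down the messenger cAMP, were represented by Pde7b and Pde4a. Pde7b was at 8.36 to 9.13 in the 9 mice, 9.40 in T replicate 3 and 9.81 in T + WBV replicate 2, against 10.07 ± 0.19 (SD, n = 6) in C. Its slope of −0.61 (SE 0.06, adjusted p = 0.00106) changed little in the 9 mice (−0.58, SE 0.16, unadjusted p = 0.00363). Pde4a had a slope of −0.76 (SE 0.10, adjusted p = 0.00290). P2ry1, a receptor for ADP, and Ptprs, a receptor phosphatase, had slopes of −0.58 and −0.57.

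Several lists of fibre and metabolic genes held 1 call each, where 0.207% of all genes were called lower. Phkg1, the catalytic subunit of muscle phosphorylase kinase, which starts glycogen breakdown, was at 5.38 to 7.02 in the 9 mice, 7.11 and 8.05 in the 2 heaviest and 8.21 ± 0.13 (SD, n = 6) in C. Its slope was −0.97 (SE 0.14, adjusted p = 0.00586), and it was the call at 0.01 among 33 genes of glycolysis and glucose use. Pdp1, the phosphatase that activates pyruvate dehydrogenase, had a slope of −0.73 (SE 0.12, adjusted p = 0.00944) and was the call among 25 genes of the citrate cycle and pyruvate. Myoz3, a Z-disc protein of fast fibres, had a slope of −0.85 (SE 0.12, adjusted p = 0.00459) and was the call among 18 fast fibre genes. Nt5c1a, which removes phosphate from AMP in muscle, had one of −0.63 (SE 0.10, adjusted p = 0.00667), the call among 14 genes of purine breakdown. Lmod3, which builds thin filaments, and Fndc5, the precursor of the hormone irisin, had slopes of −0.62 and −0.50, and Klhl31 and Klhl23, of the kelch family, −0.36 and −0.49.

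The remaining genes lower in lighter mice were Ociad2, Fndc1, Trim7, which binds the glycogen primer glycogenin, Alpl, or alkaline phosphatase, Dupd1, a dual-specificity phosphatase, Pcp4l1, Sec14l5, Tet1, which oxidises methylated DNA, Lynx1, which binds acetylcholine receptors, Slc25a35, a mitochondrial carrier, Lsmem1, and Dynll2, a dynein light chain. Their slopes ran from −1.08 for Ociad2 to −0.53 for Dynll2.

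Genes of the oxidative programme had small slopes, nearly all of them below 0. Of 74 genes of oxidative phosphorylation 0 passed, and 5 were lower at an adjusted p under 0.05, where 1.09% of all genes were. But 73 of the 74 slopes were below 0, against 8678 of 18820 over all genes, with a median of −0.22 against 0.01. The largest of the 5, named after the values were seen, was Cox7a1, a muscle form of a subunit of complex IV, with a slope of −0.52 (SE 0.11, adjusted p = 0.0269). Genes of 1 complex are not independent of each other. Of 43 ribosomal proteins 42 had slopes above 0, against 10142 of 18820 over all genes. The median of the 43 was 0.09, and 1 gene, Rpl3, had an adjusted p under 0.05. Ppargc1a, the coactivator PGC-1 alpha, had a slope of −0.52 (SE 0.24, adjusted p = 0.332) and Hk2, or hexokinase 2, one of −0.27 (SE 0.14, adjusted p = 0.414). Myh7 itself had a slope of −0.04 (SE 0.07, adjusted p = 0.838).

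Several lists held no call at 0.01 yet had members at an adjusted p under 0.05, where 0.808% of all genes were higher and 1.09% lower. Of 25 interferon response genes 4 were lower in lighter mice and 0 higher, among them Iigp1 and Gbp7, which act against intracellular parasites (slopes −0.70 and −0.56). Of 17 clock genes 4 were higher and 0 lower, for example Per1 (0.49, SE 0.10, adjusted p = 0.0215). Of 38 proteasome subunits 2 were higher, and of 18 slow fibre genes 2 were higher and 1 lower. Among 24 chemokines and cytokines 1 was higher, Cxcl13, which attracts B cells. It was at 8.39 to 10.62 in the 9 mice, 6.91 in T replicate 3 and 5.18 in T + WBV replicate 2, with a slope of 1.96 (SE 0.34, adjusted p = 0.0121) that was 0.26 (SE 0.66) in the 9 mice. Ky, a peptidase of the muscle Z-disc, was fitted 2.00-fold lower per 10 points in all 11 mice and did not pass (adjusted p = 0.0614). It had a slope of 0.03 (SE 0.51) in the 9 lightest, where it was at 3.67 to 5.44 against 7.77 ± 0.36 (SD, n = 6) in C. Fn1, or fibronectin, had a slope of −0.49 (SE 0.14, adjusted p = 0.0967).

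**Figure D3:**
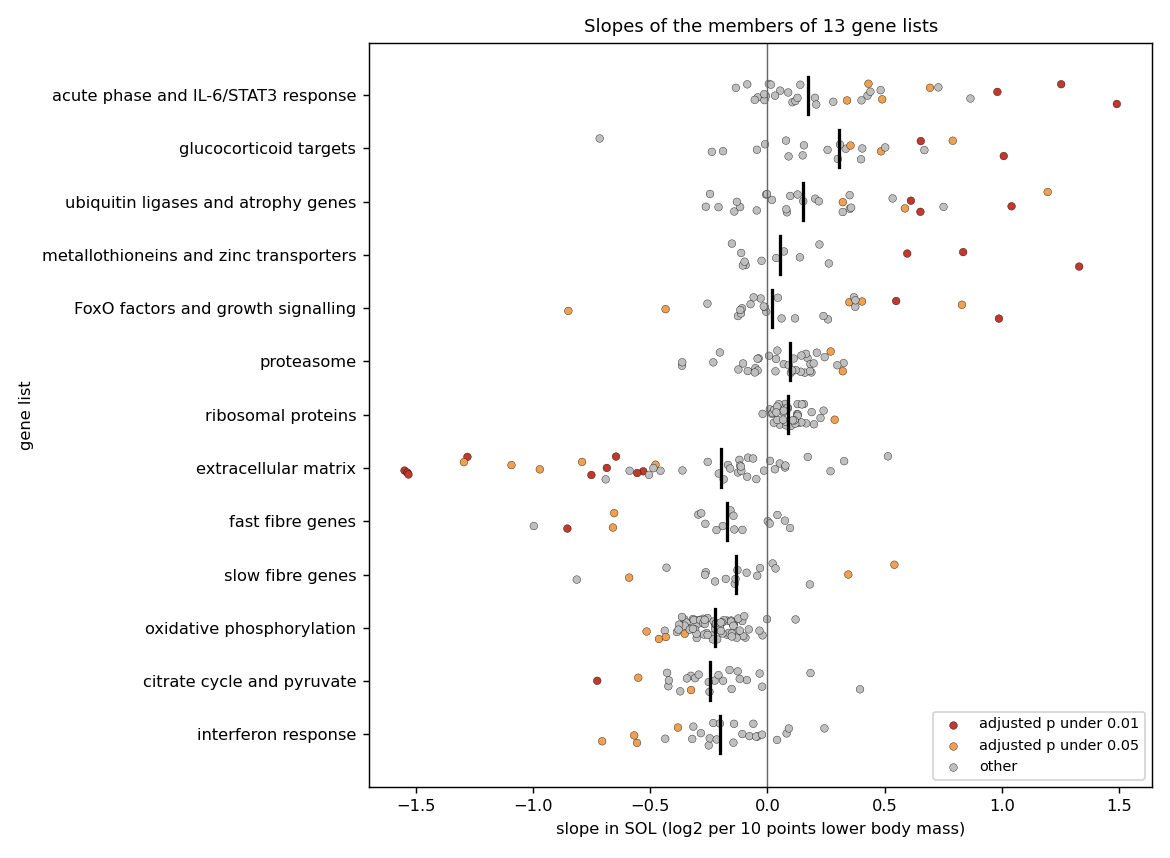
Slope in SOL (x axis, log2 per 10 points of lower body mass) of each measured member of 13 gene lists (rows), with the list's median as a bar and the colour giving the adjusted p. Matrix genes reach −1.55 and acute phase genes 1.49, while slopes of oxidative phosphorylation lie nearly all below 0 and close together.

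The level of the 63 genes was also set against C in each mouse, as a description, since genes chosen by their slope on body mass must set the heavier mice apart from the lighter ones. In T + WBV replicate 2, 10 of the 24 genes that were higher in lighter mice and 19 of the 39 that were lower had a level within the range of the 6 C mice. In T replicate 3 these numbers were 5 and 0, and in each of the other 9 mice 0 and 0. Over all 18820 genes, the share within the C range was 73.3% in T + WBV replicate 2, 64.6% in T replicate 3 and 42.1 to 58.1% in the other 9 mice. The median of the 24 genes lay 0.34 above C in T + WBV replicate 2, 0.91 in T replicate 3 and 1.40 to 2.13 in the 9 lightest. For the 39 genes the medians were −0.26, −0.90 and −2.13 to −1.32. Single genes departed from these medians. In Lcn2, Slc39a14 and Fkbp5 T + WBV replicate 2 lay above every C mouse, and in Chad its 9.15 lay within the C range of 8.01 to 9.63, where T replicate 3 lay within the range of the 9 lightest.

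Without the 2 heaviest mice, genes higher and genes lower in lighter mice differed in how much of their slope was left. The slope in the 9 mice over that in 11 had a median of 0.615 in the 24 genes and of 0.866 in the 39. Of the 24, 23 had a smaller slope in the 9 mice, whereas 14 of the 39 had a steeper one. The lowest ratios among the 24 were those of Serpina3n (0.18), Mt1 and Cebpd, and the highest ratio among the 39, 1.43, was that of Chad. These ratios are a description, since the genes were chosen by the slope in all 11 mice.

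**Figure D4:**
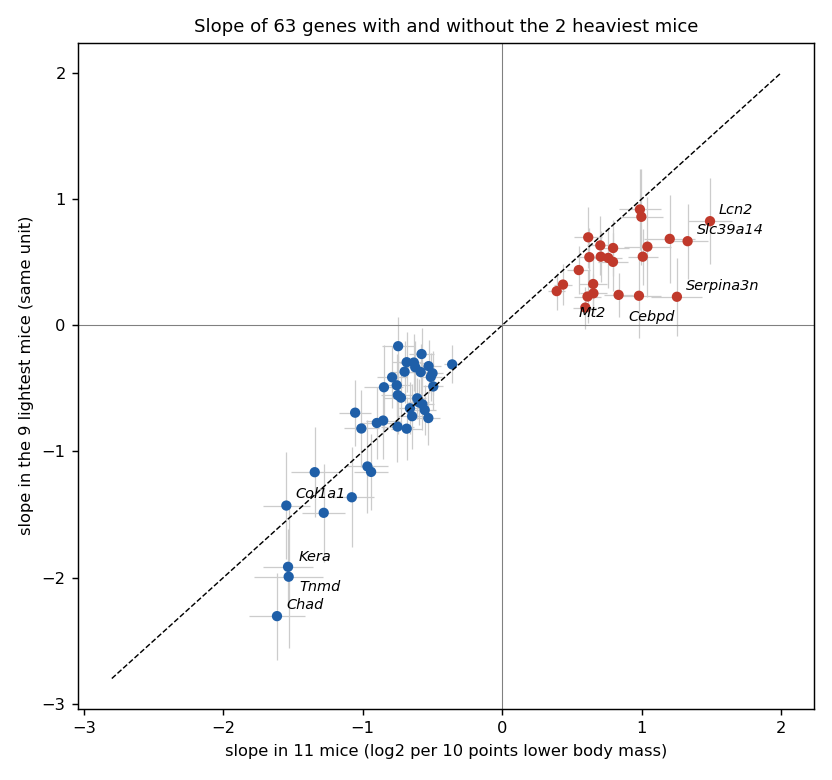
Slope of the 63 genes in all 11 mice (x axis) and in the 9 lightest (y axis), both in log2 per 10 points of lower body mass, with SE as bars and equality as the dashed line. All 63 points keep their sign, Serpina3n, Cebpd and Mt2 lie near 0 on the y axis, and Chad, Kera and Tnmd lie beyond the line.

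The slope did not pass as different between trained and untrained mice for any gene. With an interaction of body mass and WBV, limma called 0 genes (529 at an unadjusted p under 0.05), and the smallest adjusted p, 0.322, was that of St6galnac3, a sialyltransferase (slope −0.95 in T and 0.60 in T + WBV, difference 1.55, SE 0.23). For the 63 genes the smallest unadjusted p of the interaction was 0.00134 and 5 were under 0.05. At equal body mass T + WBV and T differed in 0 genes (509 at an unadjusted p under 0.05). Tor4a had the smallest p of that comparison, with T + WBV higher by 0.49 (SE 0.11, adjusted p = 1.00), and Capsl the next, with T + WBV minus T at −0.48 (SE 0.11). With 6 and 5 mice, and with the heaviest mouse in T + WBV, an effect of training on body mass and one on expression at equal body mass cannot be told apart in full.

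In mice without a tumour no gene passed. Over the 12 control mice, whose body mass spanned only 107 to 114.5%, limma called 0 genes (388 at an unadjusted p under 0.05). Of the 63 genes, 41 had the sign they had in tumour-bearing mice (65.1%, against 52.4% of all genes) and 0 had an unadjusted p under 0.05. The 44 matrix genes had a median slope of −0.28 in control mice, against −0.20 in tumour-bearing mice. For the 32 acute phase genes it was −0.08 against 0.17, and for all genes −0.01 against 0.01.

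In EDL, the fast muscle, of the same 11 mice, 220 genes followed body mass at an adjusted p under 0.01 (1.17% of the genes tested), 91 higher (0.484%) and 129 lower (0.685%) in lighter mice. At an adjusted p under 0.05 it was 868 (4.61%), 334 higher (1.77%) and 534 lower (2.84%). All 63 SOL genes had the same sign in EDL, where 67.1% of all genes did, and 37 were called there too, which is 58.7% of the SOL calls and 16.8% of the EDL calls. At 0.05 it was 52 of the 63. EDL and SOL come from the same mice with the same body masses, so this is no second set of mice. Lcn2 had a slope of 2.14 (SE 0.23, adjusted p = 0.000742) in EDL, Slc39a14 1.72 (SE 0.19), Chad −1.91 (SE 0.19) and Col1a1 −1.41 (SE 0.19). The smallest EDL slope among the 24 genes was that of Glul at 0.28 (SE 0.10, adjusted p = 0.121). The EDL count also rests on single mice, with 2 genes without T + WBV replicate 2 and 14 without T replicate 3.

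The slope in SOL minus that in EDL, tested within the mouse, passed for 1 gene (0.00531% of the genes tested), and for 0 of the 63. That gene was Gdap1, a protein of the mitochondrial outer membrane whose loss causes a nerve disease. In EDL it was at 2.58 to 3.19 in the 9 lightest mice, 3.97 in T replicate 3 and 5.51 in T + WBV replicate 2, against 5.91 ± 0.35 (SD, n = 6) in C. In SOL it was at 2.49 to 2.96 in all 11 mice and at 3.01 in C, so it was low throughout. The slope was 0.09 in SOL (SE 0.08) and −1.11 in EDL, a difference of 1.20 (SE 0.12, adjusted p = 0.00117), which had adjusted p = 0.401 without T + WBV replicate 2 and 0.0131 without T replicate 3.

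At an adjusted p under 0.05 the difference passed for 7 genes (0.0372%), 5 with the larger value in SOL (0.0266%) and 2 with the larger value in EDL (0.0106%). Among them, Dkk3, a secreted protein of the dickkopf family, had slopes of 0.11 in SOL and −1.18 in EDL (adjusted p = 0.0170). Hamp2, a hepcidin gene, had −0.33 and 1.49 (adjusted p = 0.0170), Acot2, a mitochondrial thioesterase, −0.55 and 0.19 (adjusted p = 0.0241), and Pld5 0.02 and −0.87 (adjusted p = 0.0349). Ankrd2, a stretch response gene of slow muscle, named after the values were seen, had 0.35 (SE 0.06) and 1.09 (SE 0.11), a difference that did not pass (adjusted p = 0.125).

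**Figure D5:**
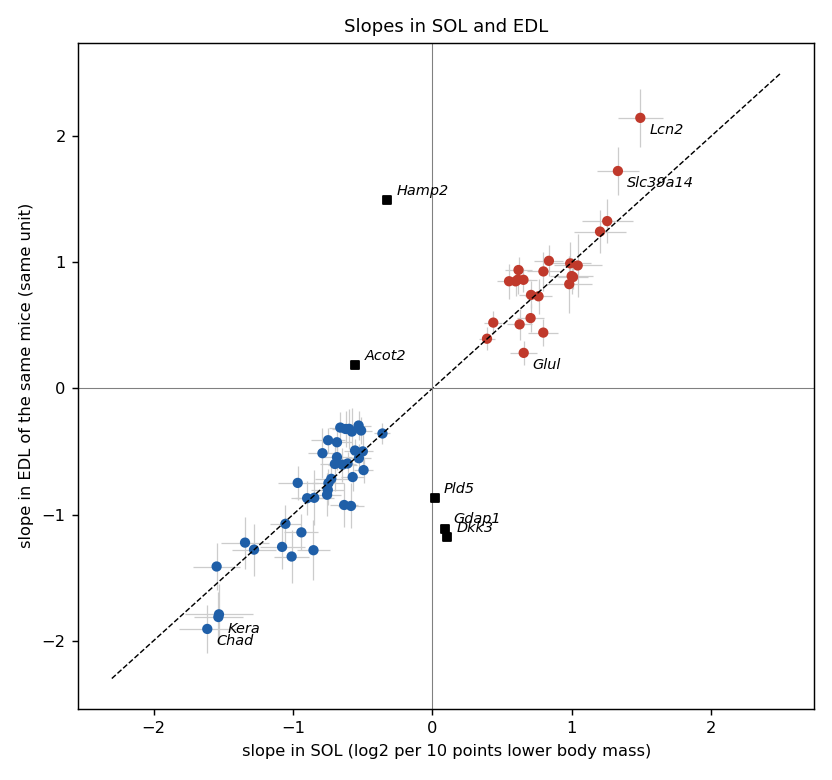
Slope in SOL (x axis) and in EDL of the same mice (y axis), in log2 per 10 points of lower body mass, for the 63 genes called in SOL (circles, with SE as bars) and 5 genes with the smallest p for the difference (squares). The circles lie in the 2 quadrants of equal sign near the dashed line of equality, and Gdap1 lies at 0.09 in SOL and −1.11 in EDL.

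Calls that stood the loss of any single mouse but the heaviest were few. Across the 11 fits that leave out 1 mouse each, a gene of the 63 passed in a median of 7. Of the 63, 31 passed in 8 or more of these fits, and 6 genes passed in 10, all but the fit without T + WBV replicate 2. These were Lcn2, Slc39a14, Fkbp5, Col1a1, Nrep and Pde7b.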

How the data were processed

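RNA of each muscle was hybridised to an Affymetrix GeneChip Mouse Gene 1.1 ST array, and the number of arrays limits the precision. The authors made the deposited values, log2 intensities, with RMA (version not given in the sources used here). Probe sets with 1 symbol in the platform annotation (21218) were averaged into 18820 genes. Those with several symbols (1881) or none (12457) were left out. limma 3.58.1 in R 4.3.3 fitted body mass with WBV as a covariate (lmFit, eBayes with trend), with Benjamini-Hochberg adjustment over all genes and a threshold of 0.01. Fits were tested on simulated data. Masses were related with permutation tests (100000 resamples, exact for 9 mice, two-sided, SciPy 1.17.1). Named genes are the 12 largest slopes in each direction, up to 3 called members of each list, up to 5 genes with the smallest p of each other comparison, and 20 fixed genes such as the atrophy ligases. The other called genes are named to account for all 63, and genes outside these that missed the threshold were named after their values were seen. The members of the 26 pathway and 12 marker lists (828 of 908 entries measured) were chosen with earlier results of these data known. Each array is 1 mouse. Replicate numbers marked no shared mouse between groups. The alternatives were single mice left out, other mass measures, covariates, weights, normalization, filters and thresholds.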

Additional observations from a re-analysis of the deposited data

Results flagged for a closer look

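In 15 of 96 groups of named genes, a single SOL array lay apart from the rest of its group. Chance gives about 1 in 20, but 13 of the 15 are genes called by their slope on body mass and all 15 fall on the 2 heaviest mice, so the choice of genes favours these cases and the rate cannot be read against chance. Of these, 10 were T replicate 3, the heaviest T mouse, as the lowest of the 6 T mice. Its log2 level was 10.06 for Sqstm1 (next 10.573), 7.174 for Foxo3 (7.681), 7.785 for Foxo1 (8.542), 11.695 for Mt1 (12.344) and 9.711 for Glul (10.798). It was 7.082 for Gclm (8.402), 11.078 for Mt2 (12.177), 8.649 for Fkbp5 (9.523), 8.348 for Sesn1 (9.573) and 7.491 for Slc39a14 (9.115). The other 5 were T + WBV replicate 2, the heaviest mouse of all. It was the highest of 5 for Ky at 7.29 (next 5.382) and the lowest for Mt1 at 11.129 (12.216), Mt2 at 10.589 (12.048), Serpina3n at 7.623 (10.265) and Lcn2 at 6.394 (9.175). Gdap1 had a slope in SOL minus that in EDL of 1.199 (adjusted p = 0.00117), the gene whose slope differed between the muscles.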

How the results depend on the processing

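The 63 calls became 0 in the 9 lightest mice, 0 within T (1313 at an unadjusted p under 0.05), 3 within T + WBV, 2 with carcass mass in place of body mass, 0 with the rank of body mass (2560 at an unadjusted p under 0.05) and 34 with limma without a trend. They became 186 without the WBV term, 318 with all 23 SOL arrays, 619 with robust regression, 636 with array weights, 120 among genes above the median level and 358 at a threshold of 0.05. Leaving out 1 mouse each gave 0 to 109. With the replicate block the count was 124, which held 31 of the 63. The residuals of same-numbered T and T + WBV arrays, which come from different mice, correlated by −0.033 to 0.294. Differently numbered arrays were not set beside them, so these values cannot show whether the numbers carry a batch. All genes of the 63 that were tested kept their sign in each of these fits, which share mice with the fit that chose them. A second quantile normalization (83) and probe sets (59) gave counts within 1.5 times.

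In EDL the count of 220 became 0 in the 9 lightest mice (1200 at an unadjusted p under 0.05) and 868 at 0.05, and 2 to 221 with 1 mouse left out. The difference between SOL and EDL (1 gene) gave 0 in the 9 mice (865 likewise), 7 at 0.05, and 0 to 3 with 1 mouse left out. The comparisons of training, of the interaction and of control mice gave 0 in every setting run (334 to 772 at an unadjusted p under 0.05). The r of SOL mass with body mass was −0.0344 to 0.324 with 1 mouse left out, turning its sign without T + WBV replicate 2. That of EDL mass was 0.142 to 0.722, the highest without T replicate 2 (permutation test, adjusted p = 0.0268). That of carcass mass was 0.860 to 0.954.

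Named genes whose slope turned its sign had not passed, apart from Aqp4 in EDL, at 0.0716 in the 9 mice. In the 9 mice the others were Ky (0.0344), Myh7 (0.0938), Stat3 (−0.0285), Mstn (−0.37) and Trim63 (−0.15). Stat3 was at −0.11 and Fbxo32 at −0.0266 within T, and Stat3 ran from −0.00281 without T + WBV replicate 2 to 0.162 with 1 mouse left out. The causes were not tested. With 11 mice, and 2 of them carrying most of the range, a slope among the 9 lightest mice was not detectable after adjustment.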
